A study of Mus musculus with 23 samples.

Results

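RNA polymerase II transcribes protein-coding genes, and chromatin profiling usually finds it in greatest amount at the starts of genes. The regions described here are the RNA polymerase II peaks that lay far from the outer ends of any protein-coding gene. A peak was taken as deep when its midpoint fell inside the span of a protein-coding gene and over 3000 bp from both ends of every protein-coding gene, on chromosomes 1 to 19 and X. By this rule 2671 of 10890 peaks on these chromosomes were deep, or 24.5% of the list (exact Clopper-Pearson 95% interval 23.7 to 25.4%, counting error only). They lay in 1601 host genes.

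The study applied CUT&Tag to CD4+ naive T cells from spleen and pLN of WT and DDX55 KO mice. DDX55 belongs to the DEAD-box family of RNA helicases. CUT&Tag uses an antibody that brings a transposase to its target in bead-bound cells, after which the DNA cut there is sequenced. For RNA polymerase II there were 2 WT and 2 DDX55 KO samples, all with treatment given as none, and 1 merged list of 10924 peaks named by all 4. How the knockout was made, and whether the 2 samples of each genotype were separate mice, is not in the labels. The merged list holds coordinates only, so it gives no value per sample, no height, no depth and no difference between WT and DDX55 KO. An interval that overlaps in several samples may have been joined, so a width is the extent of a merged region. The same kind of list was used for H3K9me3 (a histone mark of silent chromatin), R-loops (DNA-RNA hybrids, antibody S9.6, with RNase H controls among the samples that name the list) and DDX55, each from WT and DDX55 KO samples.

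As background, RNA polymerase II pauses shortly after it starts a transcript, and it is also found at active enhancers, many of which lie in introns. Many mammalian genes have several promoters, so the start used in one cell type can lie well inside the full span of the gene. Promoters fall into those rich in CG dinucleotides, the CpG islands, and those that are poor in them. Small noncoding RNA genes with promoters of their own can also sit inside a larger gene.

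Sequences at annotated transcript starts that lay deep inside a gene and had a deep peak within 1000 bp are shown first, because they give the promoter sequence at or near which a deep peak lay. In 5 of the 8 the peak covered the start. Each window runs 5′ to 3′ from 250 bases before to 50 bases after the start, in the strand of the transcript, and comes from RefSeq on GRCm38.p6 (coordinates as in mm10). Capitals mark CG dinucleotides. The 8 windows were chosen after their values were seen, to set windows rich in CG beside windows poor in it at genes of T cell function, with 1 imprinted noncoding RNA.
Runx1, chr16:92697280-92697579, minus strand: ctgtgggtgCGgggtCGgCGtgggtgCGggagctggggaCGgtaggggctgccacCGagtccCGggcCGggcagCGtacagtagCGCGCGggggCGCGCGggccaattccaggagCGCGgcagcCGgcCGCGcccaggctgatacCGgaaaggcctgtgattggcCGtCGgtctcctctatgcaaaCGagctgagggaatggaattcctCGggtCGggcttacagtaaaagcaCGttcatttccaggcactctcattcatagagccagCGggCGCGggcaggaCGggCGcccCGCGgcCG
Foxp1 window near the 3′ side, chr6:99028249-99028548, minus strand: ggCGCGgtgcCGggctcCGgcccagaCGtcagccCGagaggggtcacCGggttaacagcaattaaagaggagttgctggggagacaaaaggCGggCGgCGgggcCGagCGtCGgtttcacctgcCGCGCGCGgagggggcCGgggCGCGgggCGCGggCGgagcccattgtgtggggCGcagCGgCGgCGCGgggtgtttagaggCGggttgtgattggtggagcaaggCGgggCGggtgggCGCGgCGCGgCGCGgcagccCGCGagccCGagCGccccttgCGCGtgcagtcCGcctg
Foxp1 window in the middle of the gene, chr6:99266466-99266765, minus strand: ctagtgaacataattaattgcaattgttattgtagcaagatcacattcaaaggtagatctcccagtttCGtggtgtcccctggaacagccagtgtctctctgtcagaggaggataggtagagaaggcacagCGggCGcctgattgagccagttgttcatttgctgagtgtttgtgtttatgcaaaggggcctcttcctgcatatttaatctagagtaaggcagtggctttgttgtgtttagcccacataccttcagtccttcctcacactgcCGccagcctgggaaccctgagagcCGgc
Dnmt1, chr9:20952930-20953229, minus strand: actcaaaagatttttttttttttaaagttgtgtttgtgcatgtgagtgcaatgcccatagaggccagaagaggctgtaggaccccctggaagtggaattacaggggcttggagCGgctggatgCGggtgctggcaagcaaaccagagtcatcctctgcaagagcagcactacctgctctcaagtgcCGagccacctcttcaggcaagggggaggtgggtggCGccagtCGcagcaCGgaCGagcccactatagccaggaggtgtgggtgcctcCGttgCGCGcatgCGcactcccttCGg
Lck, chr4:129558323-129558622, minus strand: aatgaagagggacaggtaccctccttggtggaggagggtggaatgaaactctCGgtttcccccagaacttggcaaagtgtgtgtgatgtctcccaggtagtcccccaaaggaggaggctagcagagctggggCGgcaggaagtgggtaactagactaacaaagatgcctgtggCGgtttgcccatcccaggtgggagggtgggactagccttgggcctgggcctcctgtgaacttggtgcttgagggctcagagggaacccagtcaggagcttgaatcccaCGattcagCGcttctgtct
Ptpn22, chr3:103860027-103860326, plus strand: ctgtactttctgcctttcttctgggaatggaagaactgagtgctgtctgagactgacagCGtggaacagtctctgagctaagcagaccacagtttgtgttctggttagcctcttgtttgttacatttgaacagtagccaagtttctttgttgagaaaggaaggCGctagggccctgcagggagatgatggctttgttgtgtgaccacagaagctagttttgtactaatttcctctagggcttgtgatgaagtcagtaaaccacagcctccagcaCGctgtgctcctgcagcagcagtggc
Ikzf1, chr11:11689927-11690226, plus strand: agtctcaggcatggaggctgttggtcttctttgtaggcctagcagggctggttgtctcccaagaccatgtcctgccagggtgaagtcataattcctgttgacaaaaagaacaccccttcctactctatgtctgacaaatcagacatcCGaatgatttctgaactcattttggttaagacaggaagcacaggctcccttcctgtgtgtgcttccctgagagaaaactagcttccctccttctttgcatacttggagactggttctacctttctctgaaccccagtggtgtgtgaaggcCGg
Kcnq1ot1, inside Kcnq1, chr7:143296498-143296797, minus strand: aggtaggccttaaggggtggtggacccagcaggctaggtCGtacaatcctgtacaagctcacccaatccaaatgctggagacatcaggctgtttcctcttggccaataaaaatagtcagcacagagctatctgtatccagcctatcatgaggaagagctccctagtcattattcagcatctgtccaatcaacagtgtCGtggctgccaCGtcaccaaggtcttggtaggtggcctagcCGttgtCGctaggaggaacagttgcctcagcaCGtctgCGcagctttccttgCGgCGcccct

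The Runx1 window held 35 CG dinucleotides, and its start lay under a peak of 1142 bp, 128.6 kb inside the gene. Runx1 encodes a transcription factor of blood cell development with a distal and a proximal promoter. Foxp1, a forkhead factor that keeps naive T cells quiescent, had a start with 44 CG dinucleotides 589 bp from the midpoint of a peak of 820 bp, and a start with 5 that lay under a peak of 499 bp. The 44-CG window held 3 copies of the GC box GGGCGG and its start lay 179 bp outside the peak. In Dnmt1, the maintenance DNA methyltransferase, a start with 12 CG dinucleotides lay under a peak of 1262 bp, 7.06 kb inside the gene.

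The remaining 4 windows held 2 to 9 CG dinucleotides. Lck encodes the kinase that starts T cell receptor signalling. Its single deep peak, 758 bp wide and centred 14.96 kb from the outer 5′ end, covered a start with 5 CG dinucleotides. Ptpn22 encodes a phosphatase that dampens this signalling, and its start, with 3 CG dinucleotides and 3 copies of the RUNX motif TGTGGT in the window, lay under a peak of 1277 bp. In Ikzf1, which encodes the lymphoid zinc finger factor Ikaros, a start with 2 CG dinucleotides lay 29 bp outside a peak of 568 bp. The start of Kcnq1ot1, an imprinted antisense RNA within Kcnq1, had 9 CG dinucleotides and lay 3 bp outside a peak of 733 bp. A motif found in a window is a description of its letters and no evidence of binding.

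Deep peaks were narrower than peaks at gene ends. Their median width was 523 bp (quartiles 380 and 760 bp, range 170 to 3621 bp), against 720 bp (quartiles 482 and 1012 bp) for the 6661 peaks within 3000 bp of a protein-coding gene end and 545 bp for the 1104 intergenic peaks. Widths over 1000 bp were found in 328 deep peaks (12.3%) and 1712 peaks at gene ends (25.7%). Altogether deep peaks covered 1660 kb and those at gene ends 5262 kb. These are descriptions of a single merged list, and no test across samples can be made on it.

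Values at the limit of the rule were close together. Just inside it lay peaks in Lax1, at 3001 bp from the nearest gene end, Rfx1, at 3004 bp, and Egr2, at 3021 bp. Just outside lay peaks in Nrip1, at 2986 bp, Fyb, at 2987 bp, and Fyco1, at 2991 bp.

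Of the 16114 protein-coding genes with a span over 6000 bp, the shortest span that can hold a deep peak, 9.94% had one. A single deep peak was found in 1090 of the 1601 hosts. The other 511 (31.9%) held 2 or more, 79 (4.93%) held 5 or more, and 13 held 10 or more. The 79 hosts with 5 or more held 584 of the deep peaks (21.9%). Hosts were long genes, with a median span of 65.2 kb (quartiles 31.8 and 116 kb) against 27.4 kb for all genes over 6000 bp. A gene with a larger span offers more room for a deep peak, so the shares below are given within classes of span.

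The share of genes with a deep peak was 2.85% for spans of 6 to 20 kb, 9.2% for 20 to 50 kb, 18.7% for 50 to 100 kb, 22.5% for 100 to 200 kb and 17.2% above 200 kb. Counted per Mb of whole gene span, there were 2.45 deep peaks in the shortest class, 4.24 at 50 to 100 kb and 1.11 above 200 kb. The longest genes therefore had the fewest deep peaks per length. The rule leaves out 3000 bp at each end, which takes the largest part of the span in the shortest genes. The value of the shortest class is therefore low in part by construction. Among hosts above 200 kb, 54.7% held 2 or more.

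Deep peaks were more frequent in genes that also carried an end peak, that is, a peak no more than 3000 bp from one of their own ends. An end peak was present in 37.3% of the genes over 6000 bp and in 57.5% of the hosts (920 of 1601). Among genes with an end peak 15.3% had a deep peak (920 of 6014), against 6.74% of those without one (681 of 10100). Within each class of span the order was the same. At 6 to 20 kb the shares were 4.76% and 1.73%, and at 20 to 50 kb 13.7% and 6.11%. They were 27.4% and 12.5% at 50 to 100 kb, 36.6% and 15.6% at 100 to 200 kb, and 41.9% and 12% above 200 kb. The remaining 681 hosts had deep peaks and no peak at either outer end.

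**Figure D1:**
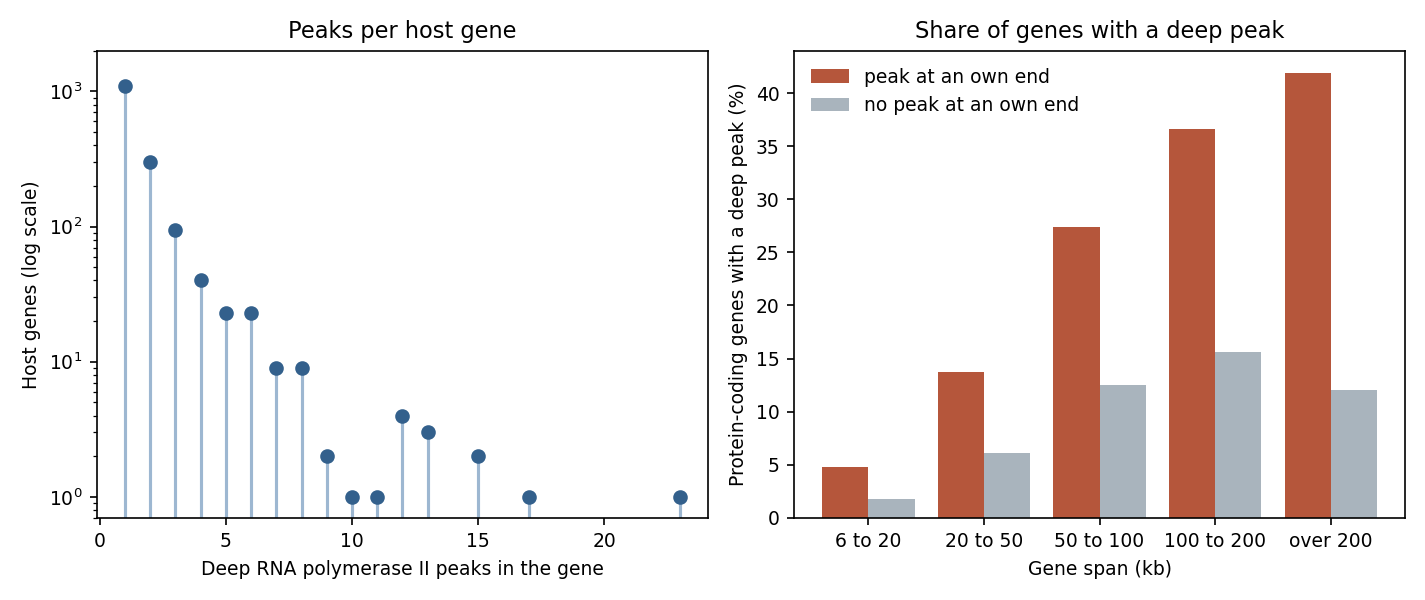
Left, number of host genes (log scale) by the number of deep RNA polymerase II peaks in the gene; 1090 hosts held 1 deep peak and Foxp1 held 23. Right, percentage of protein-coding genes with a deep peak by class of gene span in kb, for genes with and without a peak within 3000 bp of an own end; bars are shares of genes, and the share was higher with an end peak in every class.

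The 15 hosts with most deep peaks included transcription factors, kinases and regulators of T cell receptor signalling. Foxp1 (chr6:98925342-99522746) held 23, from 20.0 to 588 kb from its 5′ end, with widths of 237 to 1215 bp, and had no peak at either outer end. Bach2, which encodes a repressor that restrains effector differentiation, held 17 deep peaks covering 14611 bp in 348 kb and had peaks at both ends. Cblb, a ubiquitin ligase that limits T cell activation, held 15 in 177 kb, and its first lay 18.3 kb from the 5′ end. Inpp4b, a phosphoinositide phosphatase, also held 15, but over 792 kb, and its first deep peak lay 150 kb from a 5′ end that had a peak.

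Mbnl1, which encodes an RNA-binding regulator of splicing, held 13 deep peaks covering 11510 bp. Akap13 (an anchoring protein for protein kinase A) and Ankrd44 (an ankyrin repeat protein) also held 13 each. In Akap13 the deep peaks began 117 kb from the 5′ end. Prkch and Prkcq, both protein kinases C, held 12 each, as did Jak1, a kinase of cytokine receptors, and Ptprc, which encodes the phosphatase CD45.

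Jak1 and Ptprc were densely occupied for their length, with 10.6 deep peaks per 100 kb in both, against 3.85 in Foxp1. Ptprc had a peak at its 3′ end and none at its 5′ end. Arhgap15, a GTPase-activating protein for Rac, held 11 deep peaks over 647 kb, or 1.7 per 100 kb. Lef1 held 10, and Dock10 (a guanine nucleotide exchange factor) and Satb1 (a chromatin organiser of T cells) held 9 each. Tcf7, the partner factor of Lef1, held 6 in only 36.9 kb, or 16.3 per 100 kb, and had no peak at either end.

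**Figure D2:**
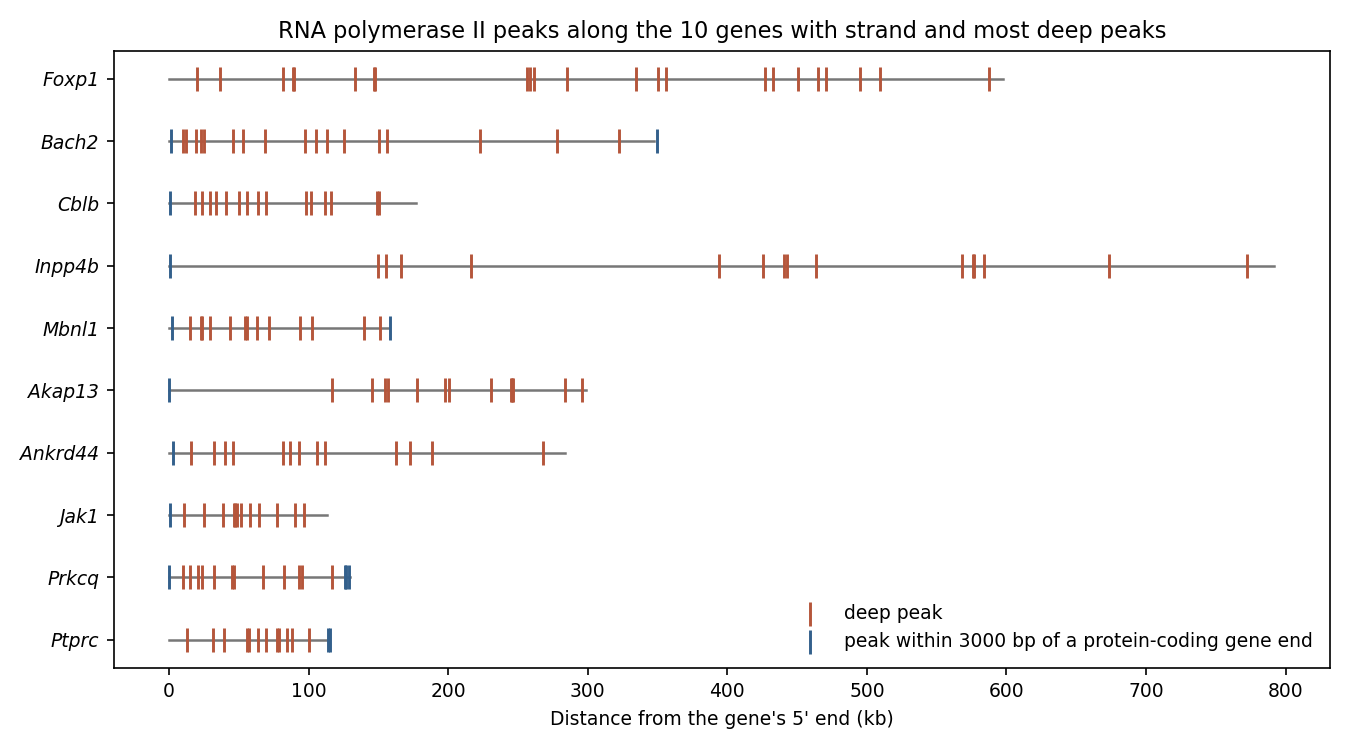
Positions of RNA polymerase II peaks along the 10 genes with annotated strand and most deep peaks, in kb from the 5′ end; grey lines are gene spans, red ticks deep peaks and blue ticks peaks within 3000 bp of a protein-coding gene end. Foxp1 held 23 deep peaks and no end peak, while the first deep peaks of Inpp4b and Akap13 lay 150 and 117 kb from a 5′ end with a peak.

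Some deep peaks lay close together, although no share for other peaks or expectation from gene span was set beside these counts. Where neighbours with a gap of at most 10000 bp were joined into runs, 841 of the deep peaks (31.5%) fell into 338 runs of 2 or more, and 96 runs held 3 or more. The run with most peaks was in Cblb, with 9 peaks in 51.9 kb that covered 7447 bp. Ptprc had a run of 8 in 33.2 kb, Fli1 (an ETS family factor) one of 7 in 34.4 kb, and Jak1 one of 7 in 26.2 kb. In Tcf7, 5 of the 6 deep peaks lay within 10.1 kb, between 21.2% and 46.7% of the way from the 5′ to the 3′ end. Chd7, Dusp10, Rnf157 and Satb1 each had a run of 6.

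Along the host gene, strand was known for 2158 deep peaks. Of these, 1233 lay on the 5′ side of the gene's middle (57.1%, exact Clopper-Pearson 95% interval 55.0 to 59.2%) and 925 on the 3′ side. The median distance was 31.0 kb from the 5′ end (quartiles 12.8 and 75.5 kb) and 39.2 kb from the 3′ end. With each gene cut into 10 equal parts, the first part held 145 peaks (6.72%), the next 4 between 265 and 278 each, and the last 109 (5.05%). The rule leaves out 3000 bp at each end, which takes room from the first and the last part. The median distance from a deep peak to the nearest end of its host was 18.9 kb, and 145 deep peaks (5.43%) lay over 100 kb from any gene end.

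Density per Mb of deep gene sequence differed between genes with and without a peak at the 5′ end. In the 4541 genes with one, there were 4.84 deep peaks per Mb at 3 to 5 kb from the 5′ end (exact Poisson 95% interval 3.47 to 6.57), 8.91 at 10 to 15 kb (7.52 to 10.5) and 6.82 at 150 to 200 kb (5.11 to 8.92). In the 8294 genes without one, density was highest beside the end, at 6.05 per Mb at 3 to 5 kb (4.88 to 7.41), and was 3.39 at 5 to 10 kb (2.80 to 4.06) and 0.948 at 150 to 200 kb (0.656 to 1.32). At 3 to 5 kb the intervals of the groups overlapped, and from 5 kb outward they did not. Counted from the 3′ end, genes without a 5′ peak had 1.89 per Mb at 3 to 5 kb (1.27 to 2.72), so the high value beside the 5′ end had no counterpart there. Only genes long enough to reach a distance add to its density, so near and far distances rest on different sets of genes. From the 3′ end, genes without a 5′ peak also went from 3.24 per Mb at 10 to 15 kb to 1.36 at 150 to 200 kb. The parts of position and of gene length in these changes were not told apart. These intervals cover counting error only, and peaks of 1 gene are not independent.

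**Figure D3:**
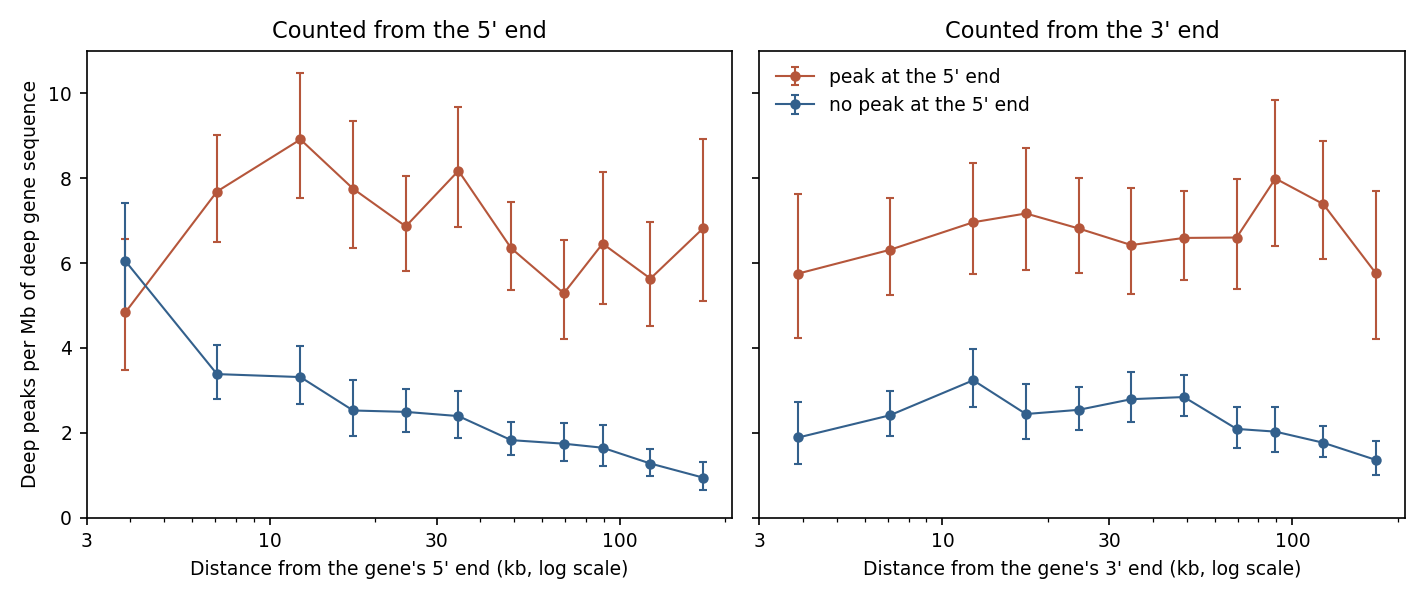
Deep peaks per Mb of deep gene sequence against distance in kb (log scale) from the 5′ end (left) and the 3′ end (right), for genes with and without a peak at the 5′ end; bars are exact Poisson 95% intervals. Genes without a 5′ peak had 6.05 per Mb at 3 to 5 kb and 0.948 at 150 to 200 kb on the left, and the groups overlapped at 3 to 5 kb from the 5′ end.

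The deep peaks farthest from any gene end lay in very long genes. The farthest was in Fhit, a fragile-site gene, 709 kb from the nearest end. Its midpoint lay 444 bp from an annotated start of Fhit itself. Next were peaks in Nrxn3, which encodes a neuronal adhesion protein, at 615 kb, in Inpp4b at 393 kb, and a pair in Wwox, another fragile-site gene, at 377 and 376 kb.

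Some deep peaks lay at annotated internal starts. The start table covers no gene of chromosome 18, so 2583 deep peaks were compared with it. Of these, 367 (14.2%) lay within 1000 bp of a start, which was a start of the host gene itself for 336 and of a noncoding gene for 31. None lay at a start of another protein-coding gene, whose outer ends the rule keeps away. In 236 of the 336 (70.2%) the peak covered the start. The other 2216 deep peaks had no annotated start within 1000 bp, which says nothing of starts that the table does not hold.

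Peaks at a start of their host were wider, with a median of 738 bp against 491 bp for deep peaks without a start nearby, and 24.4% against 10.0% were over 1000 bp wide. Read from the starts, 14.7% of the 2659 annotated protein-coding starts deep inside genes had a peak within 1000 bp (392), against 31.3% of the 18386 starts within 3000 bp of gene ends (5763). Of the 599 stranded hosts with no peak at the outer 5′ end, 226 (37.7%) had a deep peak at an internal start of their own. Of the 676 hosts with a 5′ peak, 96 (14.2%) did.

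Examples of internal starts, chosen after their values were seen, came from several functions. In Hif1a, the oxygen-responsive factor, a peak of 1662 bp lay 6.87 kb inside the gene, 329 bp from an annotated start, and the outer 5′ end had none. Cd47, which encodes the surface signal that protects cells from engulfment, had a peak of 1716 bp whose midpoint was 408 bp from an internal start. Stim1, the calcium sensor of the endoplasmic reticulum, had a peak of 1330 bp, and Arntl, the clock factor BMAL1, one of 1327 bp at 29.3 kb. In Hdac4, a histone deacetylase, a peak of 778 bp lay 424 bp from a start 14.9 kb inside the gene. Cd247, which encodes the zeta chain of the T cell receptor complex, had a peak of 1514 bp whose midpoint lay 961 bp from an internal start, and also a peak at its 5′ end.

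Internal starts with a peak were richer in CG than those without. The 300-base windows of the 392 deep starts with a peak held a median of 21 CG dinucleotides (quartiles 12 and 29), against 6 (quartiles 3 and 12) for the 2267 without. At gene ends the medians were 23 with a peak and 8 without. At least 10 CG dinucleotides were found in 79.9% of deep starts with a peak and 30.3% of those without. The 79 deep starts with a peak and fewer than 10 (20.2%) included those of Lck, Ptpn22 and Ikzf1 printed above.

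**Figure D4:**
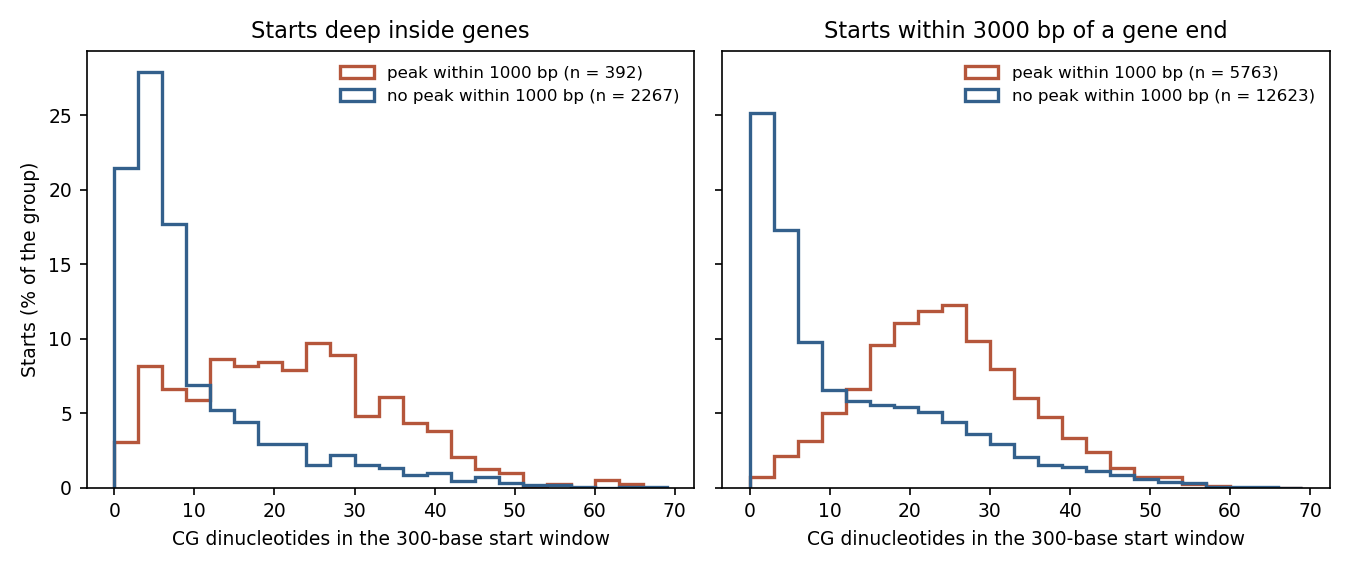
Number of CG dinucleotides in the 300-base window at annotated protein-coding starts deep inside genes (left) and within 3000 bp of a gene end (right), as a percentage of each group, with and without an RNA polymerase II peak within 1000 bp. Deep starts had medians of 21 with a peak and 6 without, and starts at gene ends 23 and 8.

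Short motifs were counted in the same windows on both strands. The GC box GGGCGG, which itself contains a CG, was present in 59.7% of deep starts with a peak, 29.7% of those without, 70.4% of starts at gene ends with a peak and 35.9% of all starts in the table. The ETS motif CCGGAAG, which also contains a CG, gave 13.0%, 3.75%, 23.0% and 8.92% in the same order. The RUNX motif TGTGGT was in 14.5% of deep starts with a peak and 16.6% of all starts, and the TCF/LEF motif CTTTGA in 11.2% and 16.0%. The TATA box TATAAA was in 5.10% of deep starts with a peak, 12.7% of deep starts without and 13.7% of all. The part of CG content in these shares was not tested.

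Genes were then grouped by 13 lists of function and cell type, and members of each with a span over 6000 bp were counted. Against the 9.94% of all such genes, the 7 lists of T cell and general regulatory functions had deep peaks in 43.8 to 67.4% of members, and the 6 lists of other cell types in 0 to 10.0%. The lists were chosen with earlier results of these data known, so these shares describe the lists and give no independent support. The lists differ in span, so each is also set beside the share over all genes in the same classes of span.

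The list of naive T cell transcription factors had a deep peak in 29 of 43 genes (67.4%, against 16.3% of genes of the same span). Of the 29, 25 had 2 or more. Not all members of this list are particular to naive T cells. After Foxp1, Bach2, Lef1 and Satb1 came Ets1, Fli1 and Ikzf1 with 8 each, Tcf7 with 6, and Klf13 and Runx1 with 5 each. Nfatc1 and Stat4, which act after antigen receptor and cytokine signals, had 4 each. In 10 of the 29 no peak lay at an outer end, among them Foxp1, Ets1, Tcf7, Stat4 and Bcl11b, a factor needed for T cell identity. Gata3, Ikzf2, Ikzf3, Myb, Runx2 and Zeb2 had neither a deep peak nor an end peak.

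T cell receptor signalling and costimulation genes had a deep peak in 24 of 38 (63.2%, against 14.0%). Cblb led with 15, followed by Prkcq and Ptprc with 12. Cd247 had 5, and the adaptors Fyb, Grap2 and Skap1 had 4 each. Cd4 and Ptpn22 had 3 each, and Arhgef6 had 2. Zap70, Cd3e, Cd3g and Cd5 had a peak at an end and no deep peak.

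Homing, adhesion and cytokine receptor genes had a deep peak in 9 of 20 (45.0%, against 9.98%). Tgfbr2, a receptor of the cytokine TGF-beta, held 8, and Il21r, Il4ra, Itga6 and Selplg held 2 each. Ifngr1, Il2rb, Il6ra and Itgb2 held 1. Il7r and Ccr7, receptors for survival and lymph node entry, had an end peak only.

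Actin and cell shape regulators had a deep peak in 14 of 21 (66.7%, against 15.1%). Arhgap15, Dock10 and Dock2 held 11, 9 and 8. Cytip, Myh9 (a nonmuscle myosin heavy chain) and Prex1 held 6 each, Dock11 and Wipf1 3 each, and Dock8 and Sptbn1 2 each. In Arhgdib and Elmo1 there was 1.

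RNA processing genes had a deep peak in 14 of 32 (43.8%, against 9.04%), while 30 of the 32 had an end peak. Mbnl1 held 13 of the 30 deep peaks in this list. Celf2, Luc7l2, Rbm39 and Srrm2 held 2 each, and Hnrnpl, Ptbp3, Rbm25, Sf3b1, Son, Srsf11 and Srsf3 held 1 each. Chromatin regulators had a deep peak in 24 of 46 (52.2%, against 18.6%). Chd7, a remodeller, held 8, Arid1b and Hdac4 held 6, Jarid2 held 5, Chd2 and Kdm6a held 4, and Arid1a, Bcor and Ncor1 held 3. Arid2 and Hdac7 held 2 each.

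Immediate-early and messenger RNA decay genes are mostly short, and 8 exceeded 6000 bp. Deep peaks were found in 5 of these (62.5%, against 4.44%). Nr4a3, an orphan nuclear receptor, held 2, and Dusp5, Egr2, Nr4a1 and Nr4a2 held 1 each. The peak of Nr4a1, 1025 bp wide, and that of Egr2, 676 bp wide, lay at an internal start of the gene, 489 and 76 bp from the midpoint.

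Lists of marker genes of other cells had few members with a deep peak, and several were at or near the share over genes of the same span. B cell markers had one in 0 of 12, against 9.78% of genes of the same span. Btk had an end peak, and the other 11, with Ms4a1, Pax5 and Ebf1 among them, had no end peak either. CD8 T and NK cell markers had one in 0 of 11 (against 2.85%, which is under 1 gene) and erythroid markers in 0 of 7 (against 11.6%). Mpo, with 1 peak of 417 bp, was the only one of 10 myeloid markers (10.0%, against 9.57%). Pecam1, an adhesion molecule also found on leukocytes, was the only one of 10 endothelial and stromal markers (10.0%, against 10.8%) and held 3. Long genes of neurons have a median span of 1291 kb. Of the 32, 2 had a deep peak (6.25%, against 17.2%), the fragile-site gene Fhit and Nrxn3 with 1 each. Of these, Fhit is not particular to neurons. The 17.2% is the share of all genes above 200 kb, so span was not closely matched for this list. Set against the label of CD4+ naive T cells, the T cell lists were above the share for their span. So were the actin, RNA processing, chromatin and immediate-early lists, so the excess was not particular to T cell genes. The myeloid and the endothelial and stromal lists were close to the share for their span. The B cell, CD8 T and NK cell and erythroid lists, with 0 members each, are too short to place below it.

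**Figure D5:**
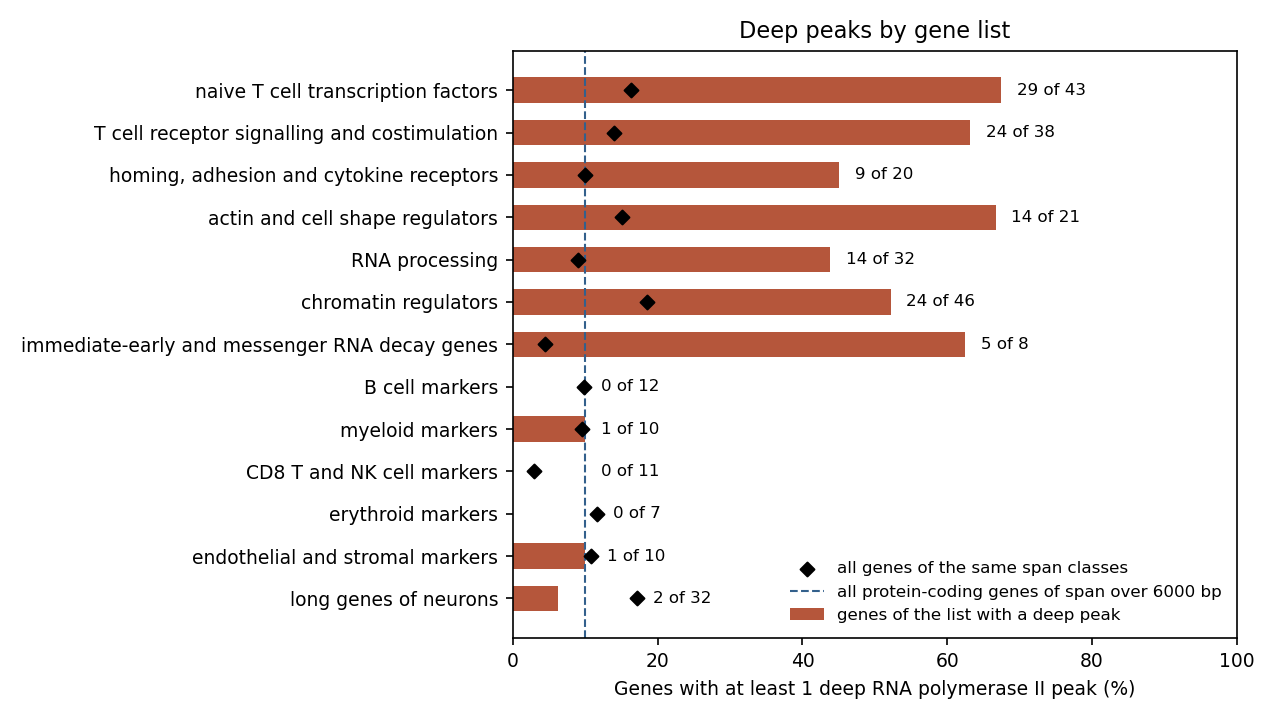
Percentage of genes in each of 13 lists with at least 1 deep RNA polymerase II peak, among members with a span over 6000 bp; numbers give members with a deep peak of those counted, diamonds the share over all genes of the same classes of span and the dashed line the share of all genes over 6000 bp, 9.94%. The list of naive T cell transcription factors reached 67.4%, and the lists of other cell types lay between 0 and 10.0%. The lists were chosen with earlier results of these data known.

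The widest deep peaks lay in genes of varied function. The widest, 3621 bp, was in Rnf157, a ubiquitin ligase gene with 7 deep peaks, 16.9 kb from its 5′ end. A peak of 3006 bp lay in Kdm6b, a demethylase of H3K27, and peaks of 2836 bp in Mbnl1 and 2565 bp in Kcnh6, a potassium channel gene. Peaks of 2310 bp in Tgif1 and 2230 bp in Slc3a2, an amino acid transporter subunit, lay at internal starts of the host. The others of the 10 widest were in Vps37b (2265 bp), Tcf7 (2236 bp), Ywhaz (2113 bp) and Nfatc1 (2071 bp).

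Noncoding genes inside protein-coding hosts lay near some deep peaks: 155 (5.80%) were within 1000 bp of the end of one. By type, 109 lay near a long noncoding RNA gene, 18 near a pseudogene, 12 near a gene typed as small nuclear RNA, 9 near a small nucleolar RNA gene and 6 near a microRNA gene. No share for other peaks or for all deep gene sequence was set beside these counts, so they describe the deep peaks only. The 6 deep peaks of Tex14, a germ cell gene, all lay at genes typed as small nuclear RNA. They were Rnu3b4 (peak of 1928 bp), Rnu3b2 (1858 bp), Rnu1a1 (1677 bp), Rnu3b3 (1610 bp), Rnu3b1 (1491 bp) and Gm22068 (1392 bp). The Rnu3b genes encode the U3 RNA of ribosome production and are near-identical copies, so reads at them may be shared between copies.

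The 6 microRNA genes were Mir1893 in Epc1 (peak of 1411 bp), Mir1904 in Pde4d (1385 bp), Mir8119 in Lck (758 bp), Mir7687 in Gse1 (560 bp), Mir7240 in Mast3 (440 bp) and Mir6999 in Dgkz (371 bp). A peak near a microRNA gene does not show that the microRNA was made, and the peak beside Mir8119 was the one at the internal start of Lck. Peg13, an imprinted RNA inside Trappc9, had a peak of 1319 bp.

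Few deep peaks met another list, with an overlap of at least 1 bp. H3K9me3 was met by 21 (0.786%, exact Clopper-Pearson 95% interval 0.487 to 1.199%), DDX55 by 15 (0.562%, 0.315 to 0.925%) and R-loops by 8 (0.300%, 0.129 to 0.589%). At gene ends the shares were 0.315%, 0.435% and 0.375%, and among intergenic peaks 3.53%, 2.72% and 1.45%. In all, 27 deep peaks (1.01%) met at least 1 list, 12 met 2 or more and 5 met all 3. The lists differ in length, with 16738 H3K9me3, 1499 R-loop and 243 DDX55 peaks, so the shares are not comparable between targets.

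The 5 that met all 3 lists lay in Sfi1 (2 peaks), Cd4, Jarid2 and Peak1. Sfi1, a centrosome gene with sequence copies elsewhere in the mouse genome, held 7 deep peaks, and 7 of them met H3K9me3 and 6 met DDX55. Reads from copies could be placed there, which was not tested. All 3 deep peaks of Cd4, which encodes the coreceptor that defines these cells, met the R-loop list, at widths of 1371, 899 and 461 bp, and the one of 899 bp also met H3K9me3 and DDX55. Of the hosts that met H3K9me3 alone, Trappc9 had the widest peak, at the Peg13 gene, followed by Sp110 (1080 bp), an interferon-responsive nuclear body gene, and Mid1 (726 bp). The peak of Sp110 also lay in the overlapping gene Sp140, with its midpoint 142 bp from an annotated start of Sp140.

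Filip1l, Zc3h7a and Arhgap21 each had a deep peak that met both H3K9me3 and DDX55. Muc6 (1547 bp), Copg2 (1011 bp) and Abcb1a (501 bp) had one that met DDX55 alone, and Kcnj15 (544 bp) one that met R-loops alone. The gene Ddx55 itself, at chr5:124552832-124569660, had 1 RNA polymerase II peak, of 686 bp at a gene end, and 0 deep peaks.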

How the data were processed

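Peaks came from CUT&Tag on RNA polymerase II in 4 samples (2 WT, 2 DDX55 KO). The authors deposited 1 merged list per target that holds genomic coordinates, another unit than counts or signal, with no score. The submitters' processing notes name mm10. They list MACS3 3.0.0b1, ChIPseeker 1.30.3, Bowtie2 2.5.0, fastp 0.12.4 and SAMtools 1.15.1. Peak thresholds and the way samples were merged are not given in the sources used here, and the depth per sample is unknown. HA and IgG samples were not analysed here.

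Gene spans were taken from RefSeq (GRCm38.p6). Strand and transcript starts came from a RefSeq table of start windows, which covers 79.9% of 21631 protein-coding genes and none on chromosome 18. That step, and the internal-start counts, were added after the reference was seen. Peaks were joined to genes with Python 3.11.15, numpy 2.4.6 and pandas 2.3.3, and intervals came from scipy 1.17.1. Figures were drawn with matplotlib 3.10.9. Membership was checked with bedtools 2.31.1 and tested on simulated data. No test across samples was made, since the lists have no values per sample. Genomic territory for densities was sampled every 100 bp.

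The members, the gene lists and the alternatives were chosen with earlier results of these data known. Named genes are Ddx55, the 15 hosts with most deep peaks, hosts of the 10 widest and 5 farthest, up to 12 members of each list, up to 10 hosts meeting each other list and up to 10 noncoding genes near a deep peak, with symbols of the Gm-number and Rik kind left out except Gm22068, one of the 6 at Tex14. Genes shown for internal starts or for absence from a list were picked after their values were seen. Some members of the lists are counted but not reported by name here. Alternatives were other distances to gene ends, other peak and gene sets and other windows.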

Additional observations from a re-analysis of the deposited data

How the results depend on the processing

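The depth behind each peak is unknown, and with 1 merged list no sample could be left out. No paired analysis was possible because the merged lists hold no values per sample and no test was made. Across 26 results, requiring the whole peak inside the gene, leaving out Gm-number and Rik genes or using autosomes only moved none beyond its counting interval, or a count by over 1.5 times. With deep set at over 1000 bp from gene ends, hosts with 2 or more deep peaks were 28.73%, the median distance to the nearest end 11810 bp, peaks on the 5′ side of the middle 61.01%, the median width 545 bp, hosts with an own-end peak 68.94%, peaks near a noncoding gene end 6.784%, peaks in runs 29.28% and peaks near a transcript start 19.82%, with 8 immediate-early genes and 2 myeloid markers. End peaks were still counted to 3000 bp there, so a deep peak 1000 to 3000 bp from an end of its host counted as one. The share of hosts with an own-end peak therefore rose in part by construction. At over 5000 bp the median distance was 21750 bp and the share near a start 12.07%. At over 10000 bp there were 1024 hosts, of which 37.11% held 2 or more and 60.16% had an own-end peak. The median distance was then 29060 bp, runs held 33.55% and 9.272% lay near a start, with 4 homing, 8 RNA processing, 1 immediate-early and 0 myeloid genes. With the ends of every annotated gene barred, own-end peaks were at 59.9%, starts at 11.87% and noncoding ends at 0%, the last by construction. In the wider 50% of the list there were 970 deep peaks in 742 hosts, 20.75% with 2 or more and 38.01% with an own-end peak. Narrower end peaks were left out too, so the own-end share fell in part by construction. The share over all genes was not counted again for this setting. In the wider 50% the 5′ side held 60.13%, the median width was 881.5 bp, 9.072% lay near noncoding ends, 17.63% in runs and 23.18% near starts. List members with a deep peak were 13 in T cell receptor signalling, 4 in homing, 9 in actin, 4 in RNA processing, 15 in chromatin, 3 in immediate-early, 0 in myeloid, 0 in endothelial and 1 in neuron lists, of fewer peaks by construction. Without peaks that meet H3K9me3, by construction 0% met it, and 0.1132% met R-loops and 0.1132% DDX55. Within 3000 bp of a noncoding end lay 10.63%, and joining runs up to 20000 bp gave 44.66%. Transcript starts, whose distances were chosen after seeing the data, lay within 500 bp of 12.31% and within 3000 bp of 17.85%. The cause of these shifts was not tested where construction does not give it.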

Other observations

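The share of RNA polymerase II peaks that were deep ranged by chromosome from 17.9% on X (40 of 224) to 29.0% on chromosome 1 (208 of 718). Genes with deep peaks and no peak at either outer end, picked after their values were seen, included Pde4b, a phosphodiesterase that breaks down cyclic AMP, with 7 deep peaks in its 3′ part between 78.2% and 96.2% of the way from the 5′ end. Peaks of 780 and 321 bp there lay 453 and 218 bp from internal starts of Pde4b.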
